A study of Mus musculus with 58 samples.

Results

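UTP6-only regions are stretches of the mouse genome that carried a peak in the chromatin immunoprecipitation sequencing (ChIP-seq) list of overexpressed UTP6 and in no other peak list of the study. They were found by merging the peaks of all 9 lists into regions wherever peaks shared at least 1 bp, and by keeping the regions whose peaks all came from the UTP6 list. This gave 13318 UTP6-only regions, each made of a single UTP6 peak, out of 67384 merged regions. They were 33.1% of the 40217 UTP6 peaks (exact binomial 95% interval 32.7 to 33.6%, counting error only). The other 26899 UTP6 peaks overlapped a peak of at least 1 other list and are called shared below. The members were chosen by the presence of a UTP6 peak and the absence of peaks in the other 8 lists, so the scores, widths and positions that follow are descriptions without a test.

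All cells were mouse embryonic stem cells of strain 129/Ola that had received no treatment. The UTP6 library came from J1 cells that carry the biotin ligase BirA and overexpress UTP6 with the tag the labels call FB. The same parental cells overexpressed tagged hnRNPU, SAFB, SAFB2, CIRH1A, UTP3 or PSPC1 in 1 library each, whereas 2 libraries held PSPC1 tagged with AID-FB at its own gene (knock-in) in CJ9 cells. A FLAG antibody was used in every immunoprecipitation. UTP6, CIRH1A, UTP3 and knock-in chromatin was fixed with 3% formaldehyde for 10 min and overexpressed PSPC1 with 1%. Cells with tagged hnRNPU, SAFB or SAFB2 were treated with 2 mM DSP, which links proteins to each other, for 30 min and then with 1% formaldehyde, and their protocol adds DNase I and a streptavidin step. The labels do not say whether a line was 1 clone. UTP6 had 1 library, so no value below has a replicate check, and read depth is not known from a peak list. No list of untagged cells was used here.

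UTP6 is a subunit of the small-subunit processome, the large nucleolar particle that assembles on the ribosomal RNA precursor and helps to cut and fold it into the small ribosomal subunit. CIRH1A, also named UTP4, and UTP3 are factors of the same pathway. PSPC1 belongs to paraspeckles, RNA-based bodies of the nucleus, hnRNPU and SAFB are nuclear proteins that bind RNA and are associated with the nuclear matrix, and SAFB2 is a close relative of SAFB. A peak of a tagged RNA-binding protein marks DNA recovered with it after crosslinking. Such DNA can be reached through nascent RNA or other proteins, and a peak does not show direct contact.

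UTP6 peaks without a partner had lower scores than shared ones, as did the peaks without a partner in each of the 9 lists. The score is the authors' value for each peak and has no stated unit. Scores of peaks are compared here only within the same list, and those of UTP6 run from 50 to 3177. An alternative run drops scores under 50 in every list. UTP6-only regions had a median score of 75.2, with 25% below 60.2 and 25% above 101, and the highest reached 401. Shared UTP6 peaks had a median of 144, with quartiles of 91.9 and 218. The distributions overlapped, as 6.91% of the shared peaks and 24.6% of the UTP6-only regions scored below 60. The UTP6 peaks that overlapped exactly 1 other list lay between these groups, with a median of 98.5.

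The share of UTP6-only regions fell in each step along the score deciles of the UTP6 list. In the lowest decile, with scores of 50 to 57.6, 64.1% of the peaks were UTP6-only (62.6 to 65.6%). The share was 38.7% in the fifth decile, 10.5% in the eighth and 4.25% in the ninth. In the highest decile, with scores from 264 up, 29 of 4022 peaks were UTP6-only, or 0.721% (0.483 to 1.03%). The 5 lowest deciles together held 10753 members, 80.7% of all, and the 3 highest held 621, or 4.66%. Counted from the top of the list, 1 of the 1000 best scoring UTP6 peaks was UTP6-only, 52 of the best 5000, 373 of the best 10000 and 2521 of the best 20000.

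**Figure D1:**
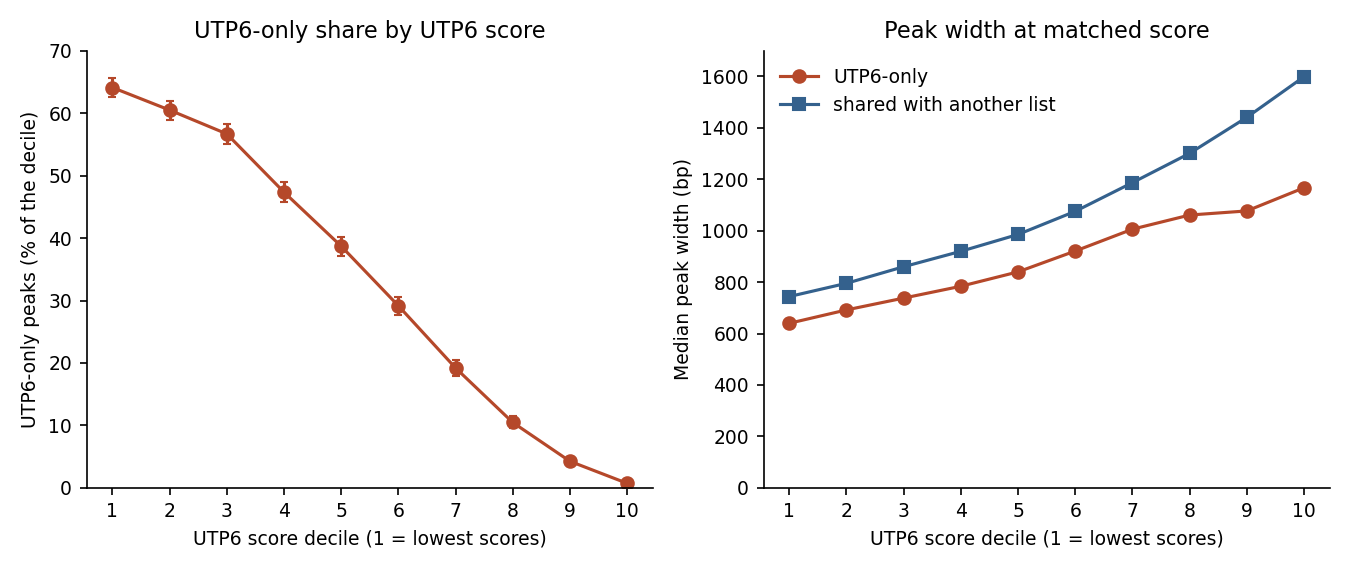
The left panel gives the percent of UTP6 peaks that were UTP6-only in each decile of the UTP6 score, with exact binomial 95% intervals, and the right panel the median width in bp of UTP6-only (circles) and shared (squares) peaks in the same deciles. The share falls from 64.1% to 0.721%, and UTP6-only peaks are the narrower ones in all 10 deciles.

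UTP6-only regions were also narrower than shared peaks, and this too held in each of the 9 lists. In the UTP3 list, for example, peaks in no other list had a median score of 57.9 and a median width of 685 bp, against 85.8 and 976 bp for the shared ones. The UTP6-only median width was 762 bp, with quartiles of 658 and 926 bp, against 1182 bp with quartiles of 894 and 1593 bp for shared peaks. They made up 33.1% of the peaks but covered 11.2 of the 47.2 Mb under UTP6 peaks, or 23.7%. Widths over 2000 bp occurred in 122 UTP6-only regions (0.916%) and in 3258 shared peaks (12.1%). Width rises with score in this list, and the groups were therefore set side by side at matched score. Shared peaks had the larger median in 10 of 10 score deciles. The ratio of the medians was 1.15 at the least, in the second decile, and 1.37 in the tenth. In the lowest decile the medians were 640 bp for UTP6-only and 744 bp for shared peaks, and in the highest 1167 and 1599 bp. With all peaks set to windows of 500 bp around their midpoints, 14744 UTP6 peaks were without a partner. Their deposited widths had a median of 777 bp, against 1186 bp for the other UTP6 peaks, not matched for score. The part of peak width in the overlap itself was not tested.

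UTP6-only regions formed the low end of an ordered series. From 0 to 8 other lists the numbers of UTP6 peaks were 13318, 7406, 5911, 5299, 3696, 2658, 1447, 367 and 115. The median score rose at every step, from 75.2 to 363. The median width rose from 762 bp without another list to 1815 bp with 7 and was 1768 bp with 8. The quartile ranges of neighbouring steps overlapped throughout, so no score or width separates the members from peaks with a few partners. The smallest gap between a member and a peak of another list was 0 bp, at chr4:124537475-124538315 with a score of 55.4, which adjoins a knock-in replicate 1 peak. It was 1 bp at chr2:11026710-11027623 and chr6:28371438-28372264, with scores of 252 and 66.2 and an hnRNPU peak beside each. The 112 members with a gap under 100 bp had a median score of 72.8 and a median width of 752.5 bp. On the other side of the rule, 129 shared peaks whose longest overlap was at most 100 bp had medians of 73.4 and 771 bp. The smallest overlap was 1 bp, at chr4:61650648-61651495 with a score of 134, followed by 2 bp at chr9:117919963-117920505 and 3 bp at chr1:18163255-18163830, with scores of 187 and 79.7.

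**Figure D2:**
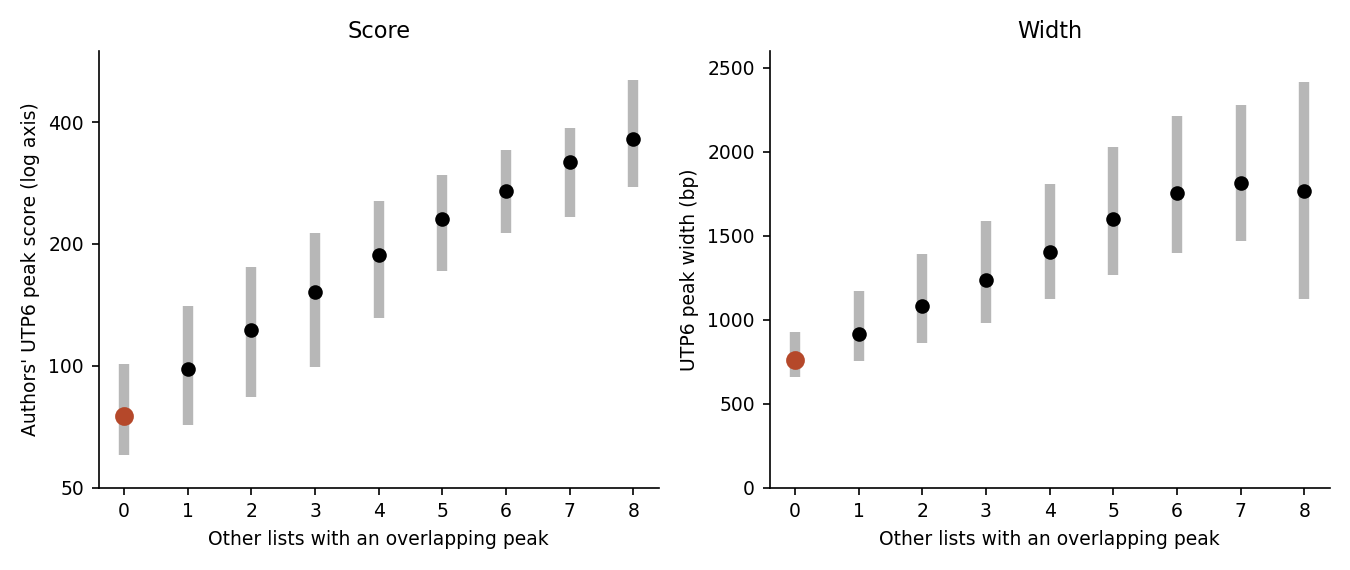
Median (points) and quartile range (bars) of the authors' UTP6 score, on a log axis, and of UTP6 peak width in bp, by the number of other lists with an overlapping peak. The UTP6-only regions, at 0, have the lowest medians of both, 75.2 and 762 bp.

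Which lists took peaks out of the UTP6-only set differed. Overexpressed PSPC1 overlapped 39.0% of the UTP6 peaks (38.5 to 39.5%), UTP3 33.9%, the knock-in libraries 31.3% and 24.0%, CIRH1A 22.6%, hnRNPU 18.1%, SAFB 11.3% and SAFB2 7.22%. The partner lists held 6670 to 22926 peaks, so these shares and the counts below do not rank likeness to UTP6. As a share of each partner list, the overlap with UTP6 had another order. It was 94.5% for CIRH1A, 93.7% for UTP3, 78.8% for overexpressed PSPC1 and 71.2% for hnRNPU. The knock-in lists had 54.2 and 51.0%, SAFB2 42.5% and SAFB 41.8%. Among the 7406 UTP6 peaks with a single partner, that partner was overexpressed PSPC1 in 1952, UTP3 in 1543, knock-in replicate 2 in 1404 and replicate 1 in 665. SAFB was the single partner of 583, CIRH1A of 537, hnRNPU of 405 and SAFB2 of 317. The partners reached to different depths of the UTP6 list. UTP3 overlapped 90.8% of the highest score decile of UTP6 peaks and 5.70% of the lowest, and CIRH1A 73.5% and 2.79%. The knock-in lists, whose scores start at 30 and not at 50, overlapped 40.3 and 53.0% of the highest decile and 13.5 and 17.9% of the lowest. Overexpressed PSPC1, with scores that start at about 50, overlapped 80.8% of the highest decile and 12.8% of the lowest. UTP6 peaks whose single partner was knock-in replicate 1 had a median score of 80.8. The median was 101 where that partner was overexpressed PSPC1 and 124 where it was UTP3.

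The UTP6-only share was set beside that of the other lists at several list lengths. The UTP6 list was the longest of the 9. With all peaks, 33.1% of the UTP6 list was in no other list, against 34.8% for SAFB, 27.7 and 27.0% for the knock-in libraries, 20.3% for hnRNPU, 18.3% for SAFB2, 10.2% for overexpressed PSPC1, 2.75% for UTP3 and 2.20% for CIRH1A. The knock-in and overexpressed PSPC1 lists each had lists of the same protein among their partners. UTP6 and the other proteins had none, so the shares are not fully alike. With the 50% highest scores of each list, 31.8% of the UTP6 peaks kept were in no other list, close to the value for all peaks. When every list was limited to its 6670 highest scoring peaks, the number in the shortest list, 652 UTP6 peaks were in no other list. Their share of 9.78% (9.07 to 10.5%) was the lowest of the 9, next to 10.6% (9.91 to 11.4%) for UTP3, and these intervals overlap. The share was 41.1% for SAFB, 35.8% for SAFB2 and 27.3% for hnRNPU, the lists made with DSP, and between 14.4 and 19.7% for the other 4 lists. Of the 6670 best UTP6 peaks, 117 (1.75%) had no partner among all peaks of the other lists, against 2153 (32.3%) of the best SAFB peaks. These cuts keep the highest scores, so they change list length and score together. They keep the whole SAFB2 list, 6670 of 10632 SAFB peaks and 6670 of 40217 UTP6 peaks. The lists are therefore not compared at a like depth of score.

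UTP6 was further compared with single lists against the same 7 remaining lists. With all UTP6 peaks, 37.0% were in none of the 7 when UTP3 was set aside, against 13.8% (13.2 to 14.3%) of the UTP3 peaks. The shares were 34.5% for UTP6 against 7.99% (7.46 to 8.55%) for CIRH1A, and 38.0% for UTP6 against 19.8% (19.3 to 20.3%) for overexpressed PSPC1. The UTP6 list was then cut to its highest scores at the length of the other list, which was left whole. Of the 14562 best UTP6 peaks, 11.3% (10.8 to 11.8%) were in none of the 7. The share was 4.22% (3.83 to 4.64%) at the 9689 peaks of the CIRH1A list and 20.0% (19.5 to 20.5%) at the 22785 peaks of the overexpressed PSPC1 list. The order of UTP6 against UTP3 and CIRH1A thus turned with the cut, which removes the low UTP6 scores and leaves those of the other list in place. Fixation differed from that of UTP6 in the overexpressed PSPC1, hnRNPU, SAFB and SAFB2 lists. Protein and protocol cannot be told apart for these lists.

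**Figure D3:**
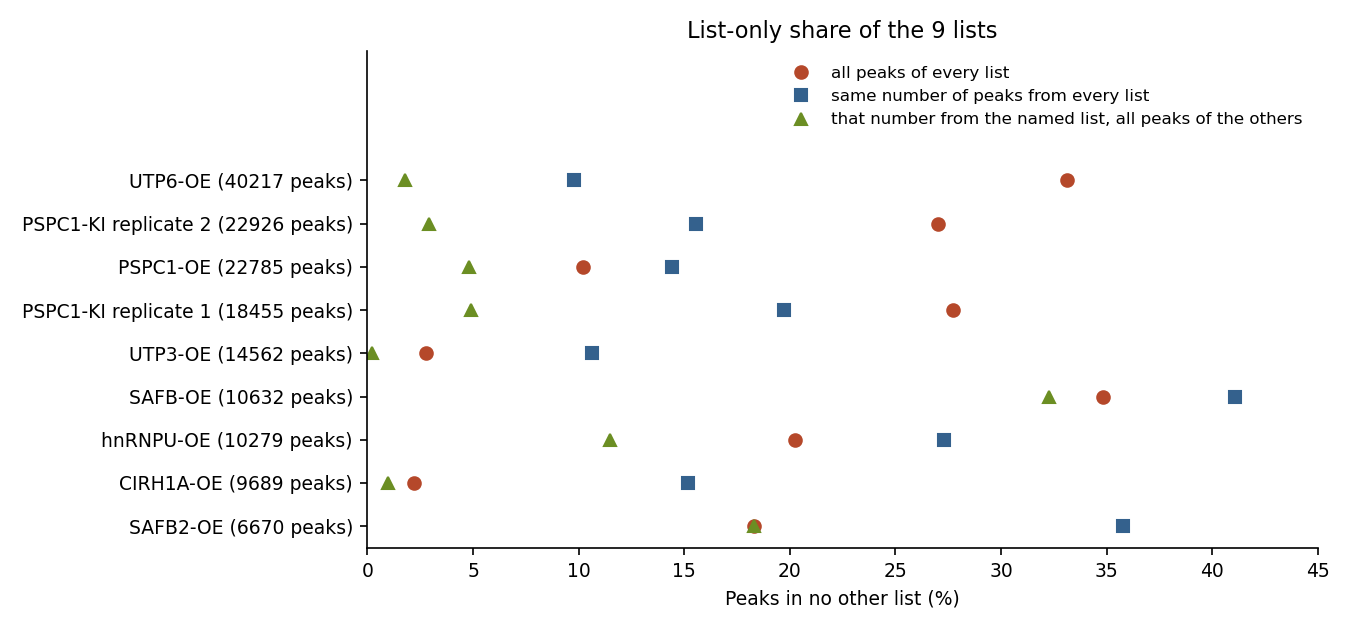
Percent of the peaks of each list that overlapped no peak of another list, with all peaks (circles), with every list cut to its 6670 best peaks (squares), and with those 6670 of the named list against all peaks of the others (triangles). The UTP6 value moves from 33.1% to 9.78% and 1.75%, while the SAFB value stays between 32.3 and 41.1%. The cut keeps 6670 of 40217 UTP6 peaks and 6670 of 10632 SAFB peaks.

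UTP6-only regions lay on chromosomes 1 to 19, X and Y, and chromosome 1 had the lowest share of them among the autosomes and X. There, 894 of 3583 UTP6 peaks were UTP6-only, or 25.0% (23.5 to 26.4%). On chromosomes 2 to 19 and X the share was between 30.4% on chromosome 19 and 37.6% on chromosome 10, with a median of 33.9%. Chromosome 1 stood lowest both below and above the median UTP6 score. Its share was 41.8% of the UTP6 peaks under that median, against 48.2 to 63.4% elsewhere, and 8.15% of those at or over it, against 10.6 to 15.7%. The median UTP6 score was 110.7 on chromosome 1 and 110.6 in the whole list. The knock-in lists overlapped 56.3% of its UTP6 peaks and 20.8 to 41.0% of those on the other chromosomes. Without these 2 lists the chromosome 1 share became 40.2% (38.6 to 41.8%), inside the range of 36.8 to 45.2% of the other chromosomes, whose median was 41.2%. Chromosome 8 then had the lowest value. The low UTP6-only share of chromosome 1 is therefore not seen against the other overexpressed proteins alone. The knock-in lists differ from these in cell line and tagging at the gene itself, which cannot be told apart here. Their lowest score differs too, and its part in the chromosome 1 share was not tested. With the 50% highest scores of each list, that share was 25.3%, against 32.4% elsewhere.

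**Figure D4:**
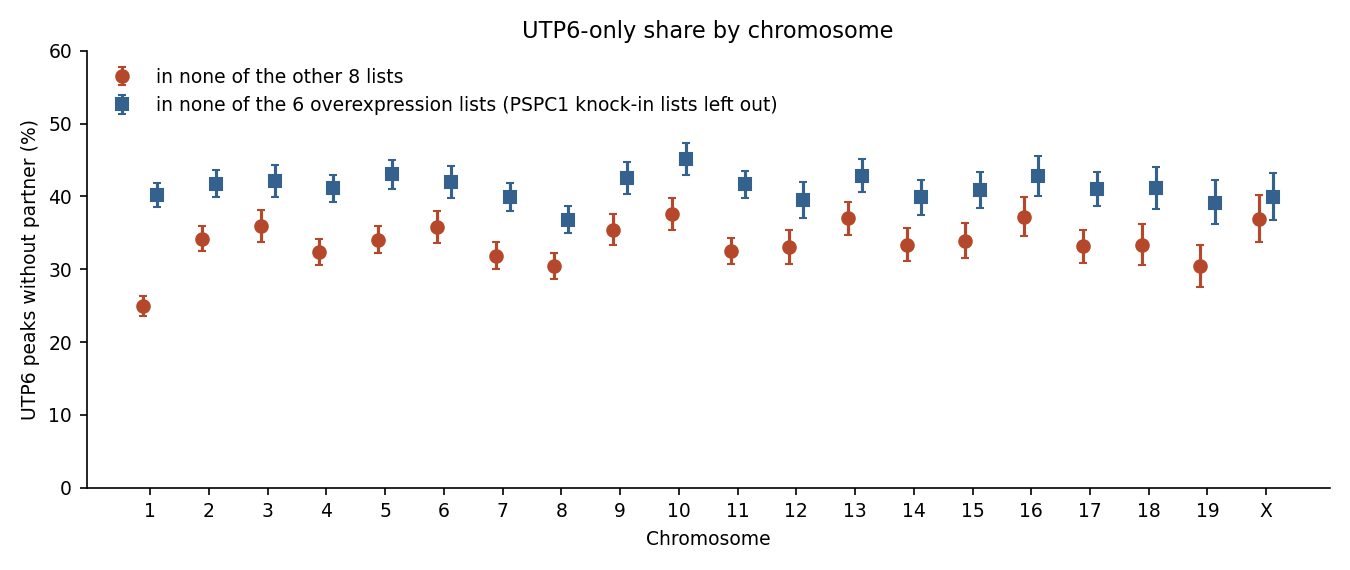
Percent of the UTP6 peaks of each chromosome that overlapped none of the other 8 lists (circles) or none of the 6 other overexpression lists (squares), with exact binomial 95% intervals. Chromosome 1 stands low at 25.0% with all lists and at 40.2%, among the other chromosomes, without the knock-in lists.

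Per length, taken as the largest peak end on the chromosome in any list, UTP6-only regions were, among chromosomes 1 to 19 and X, densest on chromosome 11 with 7.21 per Mb and sparsest on X with 2.00 per Mb. Chromosome 11 also had the most shared UTP6 peaks per Mb, 15.0, and X the fewest, 3.42. The X share of 36.9% (33.8 to 40.2%) lay within the range of the autosomes. The median UTP6 score on X was 122.6, against 110.6 in the whole list. Among peaks under the list median the X share was 63.4%, above every autosome, with chromosome 13 next at 59.7%. Among peaks at or over it the X share was 15.7%, about level with 15.7% on chromosome 10. Among the sequences without a set position on a chromosome, 73 of 256 UTP6 peaks were UTP6-only (28.5%, 23.1 to 34.5%). They were 38 of 89 on chrY_random and 8 of 81 on chrUn_random.

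In 1 Mb bins of chromosomes 1 to 19 and X, UTP6-only regions went with the shared UTP6 peaks. Of 2648 bins, 2418 held at least 1 UTP6-only region, and 45 of them held no shared UTP6 peak. The counts per bin had a Pearson correlation of 0.65 and a Spearman correlation of 0.70 over all bins, which share 1 library and its depth. The correlation was 0.55 in bins of 500 kb and 0.79 in bins of 5 Mb. The variance of UTP6-only regions over bins was 3.18 times the mean of 5.00 regions, and that of shared peaks was 9.06 times the mean of 10.1. This ratio can rise with the mean, so it does not compare how evenly the groups were spread.

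The UTP6-only share was lower where UTP6 peaks were dense. Bins were sorted by their count of all UTP6 peaks, most of them shared. The share is therefore not independent of the sorting. In the 529 bins with 1 to 5 UTP6 peaks, 38.0% of the peaks were UTP6-only (35.8 to 40.2%). The share was 37.2% in bins with 11 to 20 peaks, 32.2% with 21 to 40, and 24.0% (23.0 to 25.0%) in the 137 bins with over 40. The median UTP6 score was 124 in the sparsest bins and 107 in the densest. The share was 65.5% in the sparsest and 38.3% in the densest bins for peaks under the median UTP6 score, and 15.9% and 8.56% for the others.

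The 5 bins with the most members held 37 to 73 UTP6 peaks each. On chromosome 5, 22 of 37 UTP6 peaks between 112 and 113 Mb and 22 of 46 between 122 and 123 Mb were UTP6-only. Between 31 and 32 Mb of chromosome 7 they were 20 of 58, between 33 and 34 Mb of chromosome 16 they were 20 of 37, and between 80 and 81 Mb of chromosome 10 they were 19 of 73. UTP6-only regions were thus the larger part of UTP6 peaks in the first and the fourth of these bins.

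Distances were measured from edge to edge. The nearest non-overlapping peak of another list lay at a median of 12.0 kb from a UTP6-only region, with quartiles of 4.76 and 31.2 kb. Within 1 kb of such a peak lay 986 members (7.40%), within 10 kb 44.4% (43.5 to 45.2%) and within 100 kb 94.0%. Shared UTP6 peaks were closer to the next peak that they did not overlap, at a median of 7.53 kb, and 14.6% had one within 1 kb. For peaks under the median UTP6 score the medians were 11.7 kb for UTP6-only and 5.01 kb for shared peaks, and for the others 13.4 and 9.25 kb. The nearest other UTP6 peak, of either kind, was 14.3 kb from UTP6-only and 9.22 kb from shared peaks under the median score, and 18.4 and 15.7 kb over it. Members were thus farther from these neighbours than shared peaks in all 4 of these comparisons, with wide overlap of the distributions. The nearest other UTP6-only region did not follow this order throughout. Its median distance was 45.4 kb from members and 45.8 kb from shared peaks. Under the median score these were 44.4 and 40.4 kb, and over it 49.3 and 48.9 kb. Within 10 kb of such a region lay 16.1% of the members and 13.1% of the shared peaks. The distances to another list use the same lists whose missing peaks chose the members, so they are not independent of the rule. A peak of another list that spans neighbouring UTP6 peaks makes all of them shared. Distances between UTP6 peaks therefore depend on the rule too.

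**Figure D5:**
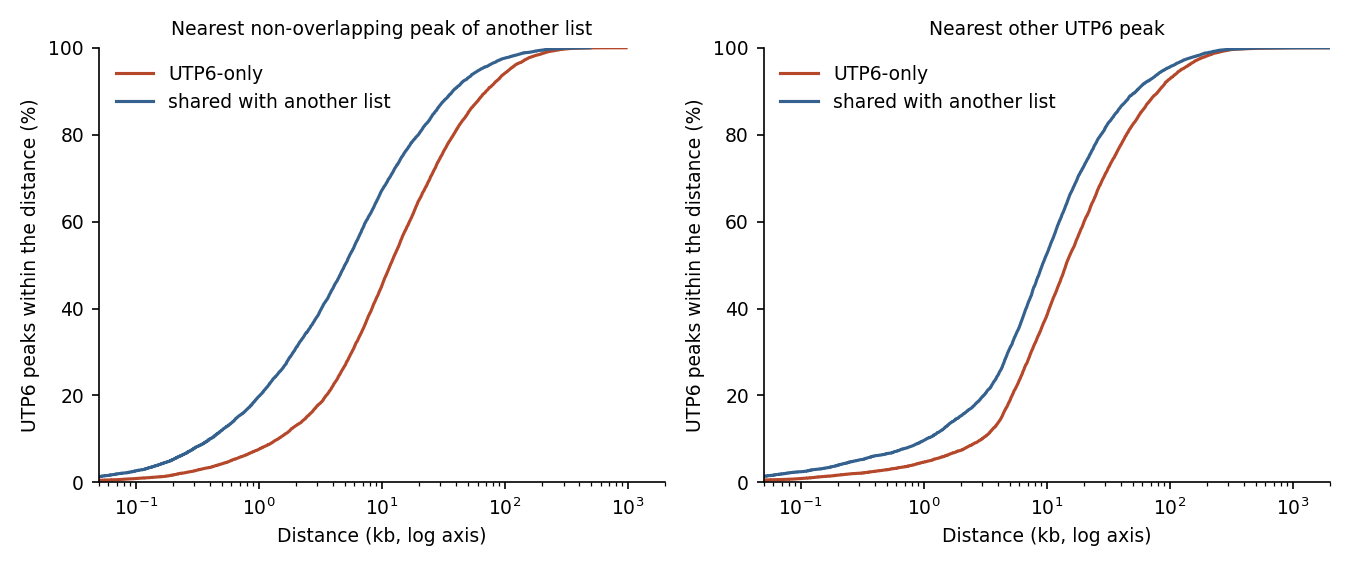
Cumulative percent of UTP6 peaks under the median score, by the distance in kb (log axis) to the nearest non-overlapping peak of another list (left) and to the nearest other UTP6 peak (right). The UTP6-only curve lies to the right of the shared curve, with medians of 11.7 against 5.01 kb and 14.3 against 9.22 kb.

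The neighbour within 1 kb of a member was a knock-in peak of replicate 2 in 245 cases, of replicate 1 in 209, and a SAFB peak in 201. It was an hnRNPU peak in 95, an overexpressed PSPC1 peak in 86, a UTP3 peak in 66, a SAFB2 peak in 51 and a CIRH1A peak in 33. Over all distances, the nearest peak came from knock-in replicate 2 for 3498 members, from replicate 1 for 2419, from SAFB for 2230, from UTP3 for 1445 and from CIRH1A for 574. The lists differ in length, so these counts are no measure of preference.

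The 10 UTP6-only regions of highest score were on 7 placed chromosomes and chrY_random. Their positions are those of the mm9 assembly, counted from 1, and no gene was assigned to any of them. The first was chr7:65496093-65497398, 1306 bp wide, with a score of 401 and rank 698 in the UTP6 list. Its nearest neighbour from another list was a SAFB2 peak 63.3 kb away, and its nearest shared UTP6 peak was 139 kb away. Another UTP6 peak lay 14.3 kb from it. The second, chr7:60329902-60330599, had a score of 344 and was 258 kb from any other UTP6 peak and 120.1 kb from the nearest peak of another list, of SAFB. The third was chr17:66512487-66513290 with a score of 333 and a knock-in peak 38.2 kb away. The fourth, chrY_random:7441499-7442830, scored 323 and had a CIRH1A peak at 13.4 kb.

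The other 6 had scores from 305 to 317. They were chr10:79303222-79304582, chr5:31753819-31755329, chr11:97627530-97628400, chr7:3568311-3569452, chr19:40140511-40141431 and chr13:61733118-61733799. The chr19 region had a knock-in replicate 1 peak 681 bp away, the closest of the 10. Over all 29 members of the highest score decile the distance to another list ranged from 0.169 to 203 kb with a median of 13.4 kb, and 13 of them lay within 10 kb. They lay on 18 chromosomes or unplaced sequences, 4 of them on chromosome 7.

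The 5 members farthest from any other list had scores between 51.2 and 92.1, around the median of 75.2 of all members. The farthest from any other list was chrX:145042342-145042806, with a score of 51.2, at 968 kb from a CIRH1A peak. It was followed by chrY_random:37777090-37777555 at 636 kb, chr14:108738914-108739669 at 579 kb, chr6:98433154-98433937 at 520 kb and chr10:64071018-64071764 at 489 kb, with scores between 70.9 and 92.1. The chrY_random sequence has no set position on a chromosome, so distances along it may not be true genomic distances. For 1 member no other list had a peak on the same sequence. The widest members had scores from 78.0 to 173. They were chr1:135563240-135568955 with 5716 bp and a score of 78.0, chr10:95353461-95357930 with 4470 bp and 173, chr4:10940762-10945150 with 4389 bp and 144, chr3:96303074-96307341 with 4268 bp and 126, and chr4:132068692-132072360 with 3669 bp and 89.4. Knock-in peaks lay 912 bp from the first and 1.71 kb from the fifth.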

How the data were processed

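Peak lists of 9 ChIP-seq libraries were used; the other 49 samples of the series were not analysed here. The authors deposited 1 list per library with a position, a name and a score per peak, and the score has no stated unit. Per the submitters' processing notes the build was mm9, and CASAVA, Bowtie2 and TopHat were listed without roles. Peak names carry the name MACS; version, threshold and control are not given in the sources used here. The deposited peak starts and ends are given from 1. Lowest scores were 30 in the knock-in lists and 50 to 50.01 in the others.

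Peaks sharing at least 1 bp overlapped. Intervals are exact (Clopper-Pearson, 95%) and count sampling alone, as peaks of 1 library do not replicate each other; medians have an exact 95% order-statistic interval. No p-value was computed. Scores were split at the UTP6 median of 110.6. Bins held peaks by midpoint. The tools were scipy 1.17.1, pandas 2.3.3, numpy 2.4.6 and matplotlib 3.10.9 in Python 3.11.15. On simulated data, all 11396 planted UTP6-only peaks among 40217 were found, with 0 false ones. Planted peaks stood apart from other UTP6 peaks, and gaps or overlaps of a few bp were not simulated. The run therefore checked the code alone.

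Regions were named by rule: the 10 highest scores, the 5 widest, the 5 farthest from another list, the 5 fullest 1 Mb bins, and the members nearest to the overlap rule. Members, rules and alternatives were chosen with earlier results of these data known. Gene, promoter and sequence comparisons were planned for an mm9 genome or annotation and were not run.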

Additional observations from a re-analysis of the deposited data

How the results depend on the processing

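Values here are the number of UTP6-only regions, their median score, their median width and the percent of them within 10 kb of a peak of another list, which were 13318, 75.2, 762 bp and 44.4% above. The text names those that moved by more than 1.5 times (number) or beyond their 95% interval; the cause was not tested unless given. In every alternative run, the median score and width of UTP6-only regions stayed below those of shared peaks. A reciprocal overlap of 50% gave 78.7, 797 bp and 48.9%, and a UTP6 list-only share of 45.5%. That 48.9% counts non-overlapping peaks only. Peaks that overlapped a member without reaching the 50% rule were left out of it, so it understates closeness. Windows of 500 bp gave 75.9, 777 bp and 48.2%. Dropping peaks with a score under 50 gave 75.9, 772 bp and 39.1%. Counting peaks within 1 kb as shared gave 39.9%, and distances between midpoints 41.1%. Fewer peaks enter the next 3 settings by construction. The 50% highest scores of each list gave 6395 regions, 144.8, 1055 bp and 27.3%. The 6670 best peaks of every list gave 652 regions, 248, 1268 bp and 24.7%, and a list-only share of 9.78%. The 6670 best UTP6 peaks against all others gave 117 regions, 240.3, 1075 bp and 39.3%, and 0.922% on chromosome 1 against 1.84% elsewhere. With UTP6 cut to the lengths of the UTP3, CIRH1A and overexpressed PSPC1 lists the list-only shares were 11.3, 4.22 and 20.0%. Leaving out both knock-in lists gave 76.5, 790.5 bp and 36.1%, and 40.2% on chromosome 1. Leaving out each other library in turn gave 13635 to 15270 regions, medians of 75.4 to 78.0 and 764 to 776 bp, and 41.0 to 44.2%. The alternatives without both knock-in lists and with matched list lengths were chosen after seeing the data. No paired analysis was possible because each protein but knock-in PSPC1 had 1 library, and no label ties a library of one protein to that of another. Read depth is unknown and limits every statement on the number of UTP6-only regions.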

Other observations

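Along the chromosomes, UTP6-only regions were sorted into runs of consecutive UTP6 peaks with no shared UTP6 peak between them. There were 8434 such runs. Of the members, 5423 (40.7%) stood alone between shared peaks, and 4167 (31.3%) were in runs of 3 or more. Runs of at least 5 numbered 169, with a median span of 263 kb, and 38 of these spans held no peak of any other list. The longest run had 13 UTP6-only peaks over 844 kb, at chr8:120482701-121326548, with scores from 54.4 to 128. It held 19 peaks of other lists between the UTP6 peaks.

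Some runs were compact. At chr16:33734431-33821440, 9 UTP6-only peaks lay within 87.0 kb with 1 peak of another list among them, and their scores ran from 50.5 to 120 (median 76.4). At chr7:6893459-7013966, 8 UTP6-only peaks lay within 121 kb with no peak of another list, with scores from 58.7 to 205 (median 86.5). A run of 8 at chr2:76642947-76985625 spanned 343 kb, also without a peak of another list, with scores up to 175. These runs were chosen after their values were seen and carry no test.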
